A study of Mus musculus with 2 samples.

Results

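CD8+ T cells of expanded clones are the tumor-infiltrating CD8+ T cells whose T cell receptor (TCR) was found again in at least 1 other CD8+ T cell of the same pool. A cell barcode was kept if it had 200 to 2500 detected mouse genes and under 5% mitochondrial UMIs (unique molecular identifiers, each counting 1 captured transcript), and it was taken as CD8+ if its *Cd8a* and *Cd8b1* UMIs exceeded its *Cd4* and *Foxp3* UMIs. Of 14035 barcodes, 9078 passed the limits, 1260 of these were CD8+, and 921 of the CD8+ cells had a clonotype, the set of receptor chains that Cell Ranger assigns to a cell. The members were the 200 cells in 73 clonotypes held by at least 2 CD8+ cells, 21.7% of the 921 (95% exact binomial interval, 19.1 to 24.5). The other 721 cells each had a clonotype that no other CD8+ cell shared, and these single-cell clones served as the comparison (their cells are called single cells in what follows).

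The cells came from C57BL/6J mice bearing intradermal transplants of B16 melanoma or of B16–IL-33, the same tumor line made to express secreted interleukin-33, and were harvested on the ninth day with no further treatment. T cells were sorted on surface TCR-β, labelled with hashtag antibodies by tumor and pooled, and the 10x 5′ chemistry gave 1 library each of gene expression, hashtags and TCR chains. All groups described here therefore come from the same pool, and neither the number of animals nor the animal of a cell is given in the labels. The pool mixes cells of both tumors, and few cells carry a tag. Expanded and single-cell clones were therefore not matched by tumor, and their differences cannot be told apart from tumor of origin. With 1 sample a group there is no test across animals: levels are given as CPM, the count of a gene scaled to 1000000 UMIs of the group summed over its cells, with 95% Poisson intervals, ratios are of CPM in members over CPM in single-cell clones, with exact conditional binomial intervals, and all these intervals cover counting error only.

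Each CD8+ T cell recognizes peptide on MHC class I through a receptor made of an alpha and a beta chain, whose genes are joined from V, D and J segments in the thymus with bases added or lost at the joints. That joint, the third complementarity-determining region (CDR3), is inherited by all daughters of a cell, so cells that carry the same CDR3 sequences are read as a clone. A naive CD8+ T cell that meets its antigen divides and passes from a program of lymph node homing, with TCF-1 and CCR7, to one of granzymes, perforin and interferon-γ, and in tumors it often acquires inhibitory receptors such as PD-1 as well.

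Most of the expanded clones were small. There were 51 clones of 2 cells, 9 of 3, 7 of 4, 3 of 5 and 1 each of 7, 8 and 13 cells, a mean of 2.74 cells per clone. The largest, named clonotype1 in the deposited table, made up 6.50% of the members (3.51 to 10.9), and the 13 clones of at least 4 cells held 71 members. By the same count of 2 or more cells within the lineage, 6.60% of the cells with a *Foxp3* UMI (126 of 1908) and 5.89% of the cells with a *Cd4* UMI and none of *Foxp3* (74 of 1257) were in expanded clones, with largest clones of 4 and 5 cells. The share of expanded cells was thus higher among CD8+ cells, with intervals that do not overlap (5.53 to 7.81 and 4.65 to 7.33 for the other lineages), although such a share also depends on how many cells of a lineage were sampled. It depends on detection too: a clone whose cells did not all show a *Foxp3* or *Cd4* UMI was split or lost cells. The effect of this on the shares was not tested.

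**Figure D1:**
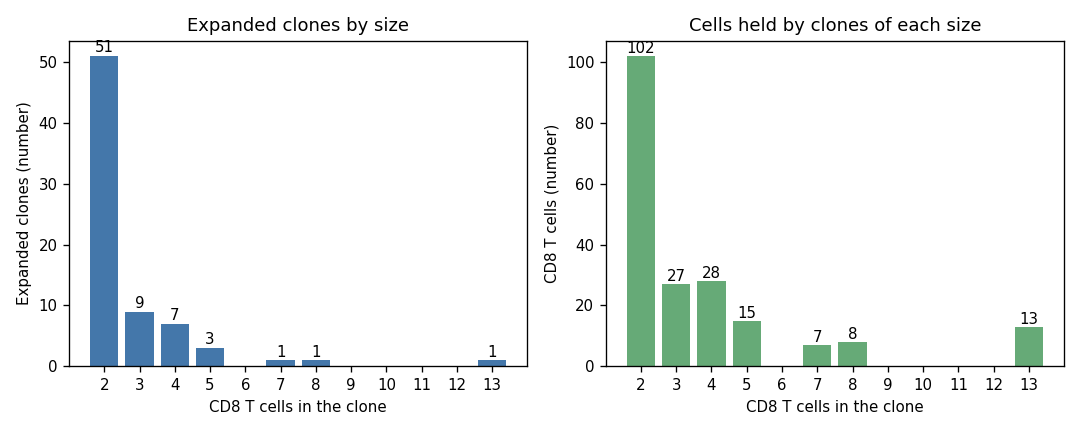
Number of expanded clones (left) and of the CD8+ T cells they hold (right), in bars, against the number of CD8+ T cells in the clone. The 51 clones of 2 cells hold 102 of the 200 cells, and the largest clone holds 13.

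The CDR3 sequences below, each written 5′ to 3′ as assembled from the cells, belong to the clones that the results turn on: the largest clone, pairs of clonotypes that share a chain, and 1 large clone with few effector transcripts. Capitals mark the bases between the end of the germline V segment and the start of the germline J segment (D segment bases included), found by matching to the V and J genes of GENCODE vM21 on GRCm38 (mm10).
clonotype1 alpha: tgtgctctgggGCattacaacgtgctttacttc
clonotype1 beta: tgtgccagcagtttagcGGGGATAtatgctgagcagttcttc
clonotype3 and clonotype7 beta: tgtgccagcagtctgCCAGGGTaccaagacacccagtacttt
clonotype19 and clonotype37 beta: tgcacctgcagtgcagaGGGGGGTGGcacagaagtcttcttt
clonotype23 beta: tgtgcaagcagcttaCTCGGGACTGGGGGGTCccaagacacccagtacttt
clonotype3 alpha: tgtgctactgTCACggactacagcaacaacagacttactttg
clonotype2 alpha: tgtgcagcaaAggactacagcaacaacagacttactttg
clonotype37 alpha: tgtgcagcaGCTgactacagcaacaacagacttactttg
clonotype24 alpha: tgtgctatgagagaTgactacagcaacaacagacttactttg

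The alpha chain of clonotype1 joined TRAV6N-7 (chr14:53318798-53319284, plus strand) to TRAJ21 (chr14:54198790-54198846), with 2 bases between them, and its beta chain joined TRBV15 (chr6:41141188-41141658) to TRBJ2-1 (chr6:41542754-41542803), with 7. All 13 cells of the clone carried both chains. The mouse alpha locus holds near-identical copies of many V genes, so the copy named for an alpha chain is uncertain. Clonotype3 (8 cells) and clonotype7 (7 cells) had the identical beta chain of TRBV26 (chr6:41227505-41227993) and TRBJ2-5 (chr6:41543453-41543501). Clonotype3 also had an alpha chain of TRAV8N-2 and TRAJ7, and no alpha chain was assembled in clonotype7. Likewise clonotype19 (5 cells) and clonotype37 (4 cells) shared a TRBV1 and TRBJ1-1 beta chain, which 2 single-cell clones carried as well, 11 cells in all.

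Such splits were frequent. The 73 expanded clonotypes had 59 distinct sets of beta chains, and 26 clonotypes shared theirs with another expanded one. Counting single-cell clones too, 30 beta chains were spread over several clonotypes, at least 1 of them expanded. In 23 of these 30, all clonotypes with an alpha chain had the same one and the rest had none, and in the other 7 there were at least 2 different alpha sets. Of the single cells, 22 (3.05%, 1.92 to 4.58) carried the beta chain of an expanded clone. With clones defined by their beta chains alone, 271 of the CD8+ T cells with a beta chain were in expanded clones (30.3%), in place of 200. An alpha and a beta chain were both assembled in 64.5% of the members (57.4 to 71.1) and in 65.3% of the single cells (61.7 to 68.8), a difference within these intervals.

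Segments were compared by clonotype, so that split clones count more than once, and again with each distinct chain counted once (an alternative added after the data were seen). In the second count, a chain found in an expanded clone was counted as expanded only, even where single-cell clones carried it too. The J segment TRAJ7 (chr14:54211470-54211528), the segment that ends the alpha chains printed above for clonotype2, clonotype3, clonotype24 and clonotype37, was in 13 of the 46 expanded clones with an alpha chain (28.3%, 15.99 to 43.5) and in 65 of 495 single-cell clones (13.1%, 10.3 to 16.4), with intervals that just overlap. By distinct chains it was in 12 of 46 (26.1%, 14.3 to 41.1) and 48 of 498 (9.64%, 7.19 to 12.6), with intervals that do not overlap. Because this count takes shared chains out of the single-cell group, no conclusion is drawn from that lack of overlap. The alpha CDR3 of clonotype2 occurred in 6 clonotypes with 11 CD8+ cells in all. TRAJ30, next in frequency, was in 7 of 46 (15.2%, 6.34 to 28.9) and 52 of 495 (10.5%, 7.95 to 13.5), which overlap. Among beta chains, TRBJ2-7 was in 9 of 72 expanded clones (12.5%, 5.88 to 22.4) and 160 of 697 single-cell clones (23.0%, 19.9 to 26.3). The intervals of TRBJ2-7 overlap, and so do those of TRBV15, in 6 of 72 (8.33%, 3.12 to 17.3) and 34 of 697 (4.88%, 3.40 to 6.75). The 6 clonotypes with TRBV15 had 4 distinct beta chains, and by distinct chains the intervals of TRAJ30, TRBJ2-7 and TRBV15 overlapped as well. The median CDR3 was 39 bases in alpha chains of expanded clones and 42 in those of single cells, and 42 bases in the beta chains of both.

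Depth and purity differed between the groups. Members had a median of 4402.5 UMIs (853 to 12272) and single cells 3980 (705 to 14063), and 2.29% and 2.42% of them were mitochondrial. The rule for CD8+ cells was met by 1 CD8 UMI in 4.0% of the members (1.74 to 7.73) but in 20.5% of the single cells (17.6 to 23.7), and 5.5% (2.78 to 9.63) against 14.7% (12.2 to 17.5) also had a *Cd4* or *Foxp3* UMI. For comparison, 40 of the 424 cells with at least 3 *Cd4* UMIs had a CD8 UMI (9.43%, 6.83 to 12.6; median depth 3751.5 UMIs). At least 2 productive beta chains, which a droplet with more than 1 cell can give, were seen in 3.0% of the members (6 cells, 1.11 to 6.42) and in 10.96% of the single cells (8.77 to 13.5). The main ratios were therefore also computed in a stricter CD8+ set, chosen after the data were seen, of cells with at least 3 CD8 UMIs and no *Cd4* or *Foxp3* UMI (149 cells of expanded and 413 of single-cell clones), and those values are given with the gene lists. Levels by clone size and within single clones were not recomputed in it.

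The members bore the markers of T cells that the rule did not use, with UMIs of *Cd3d*, *Cd3e* and *Cd3g* in all 73 clones. *Cd8a* and *Cd8b1*, which the rule used, stood at 577 CPM (529.9–627) and 1016 CPM (953–1082) in members, with *Cd8b1* UMIs in all 73 clones. Just outside the rule, 4 quality-filtered barcodes of the 73 clonotypes were not CD8+: 3 had no UMI of the 4 genes, 1 had equal numbers and none had more *Cd4* and *Foxp3*. The macrophage and monocyte list (6 genes, none at 0) summed to 187 CPM in members and 56.4 in single cells, from 20 and 57 cells. *Lyz2*, described below, is 1 of the 6 and gave 83 of the 179 UMIs in members, 40 of them in 1 cell. *Pf4*, also described below, is outside the list. Marker lists of B cells (102 and 64.9 CPM, in members and single cells), dendritic cells (109 and 122), NK cells (2.09 and 8.77), γδ T cells (2.09 and 7.52) and melanoma cells (11.5 and 8.77) were low, the fibroblast list had 1 UMI in each group, and *Igkc*, the immunoglobulin κ constant gene, stood at 100.2 CPM (81.1–122) and 49.5 CPM (42.1–57.9). The part of these cell types in the results was not tested.

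Of 4189 genes with at least 100 UMIs over both groups, receptor genes and the genes of the rule left out, 22 were at least 2-fold higher in expanded clones (0.525%) and 54 at least 2-fold lower (1.29%), and the median ratio was 1.02. Over all 4189 genes, the interval of the ratio lay above 1 in 12.5% and below 1 in 9.05%. In every one of these 76 genes the counting interval of the ratio excluded 1. At 2-fold and at least 100 UMIs this holds by construction, so it adds no support. Of the 22, 6 stayed at least 2-fold higher in the stricter CD8+ set and all 22 stayed above 1. Of the 54, 32 stayed at least 2-fold lower and all 54 stayed below 1. Without the upper limit on genes, 2 of the 22 stayed at least 2-fold higher and 21 above 1, and 28 of the 54 stayed at least 2-fold lower.

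Genes of naive cells and lymph node homing were lower in expanded clones. All 11 of the 12 listed genes that had enough UMIs were lower, 9 of them at least 2-fold (the background of genes at most 0.5 is 1.29%), with a median ratio of 0.317, against 1.02 over all genes. *Tcf7*, which encodes TCF-1, stood at 57.4 CPM (43.2–74.7) in members and 181 CPM (166–196) in single cells, a ratio of 0.317 (0.236–0.419). *Lef1*, its relative, had a ratio of 0.332 (0.225–0.476). *Il7r*, the receptor for the survival cytokine IL-7, stood at 32.3 CPM (22.0–45.9) and 154 CPM (141–169), a ratio of 0.209 (0.141–0.301). It had a UMI in 18 of the 73 clones, and 5 clones were above the pooled level of single cells. *Ccr7*, the receptor that leads T cells to lymph nodes, had a ratio of 0.280 (0.174–0.428), *Satb1*, a chromatin organizer, 0.383 (0.292–0.495), and *S1pr1*, which directs exit from lymph nodes, 0.507 (0.338–0.739). *Dapl1* and *Igfbp4* had 3 UMIs each in members, with ratios of 0.0662 (0.0135–0.197) and 0.0806 (0.0164–0.241). *Klf2*, a transcription factor of quiescent T cells that drives *S1pr1*, was closest to the single cells at 0.655 (0.587–0.730), and *Bach2* had too few UMIs to be ranked (5 against 76).

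One large clone, singled out after its values were seen, had few effector transcripts. Clonotype23, of 4 cells, held 11 of the 28 UMIs of *Id3*, a transcription factor of memory cells, and 3 of the 23 of *Ccr7*. It had 2 UMIs of *Ccl5*, 2 of *Gzmb*, and 0 of *Ifng*, *Cxcr6* and *Gzma*, at a median depth of 6577.5 UMIs per cell. All 4 cells carried the TRBV16 and TRBJ2-5 beta chain printed above, and no alpha chain was assembled. In the other 12 clones of at least 4 cells, *Ccl5* had 23 to 966 UMIs and *Gzmb* 7 to 243.

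The stricter CD8+ set kept the direction of this list and reduced its size. Its median ratio was 0.429, with *Tcf7* at 0.429, *Il7r* at 0.292, *Ccr7* at 0.381 and *Satb1* at 0.589. The 6 listed markers of CD4+ and Treg cells summed to 361 CPM in members and 526 in single cells, none at 0. The sum includes *Cd4* and *Foxp3*, which the rule used. Of the 3 ranked markers, *Ikzf2*, which encodes Helios and is found in Treg cells and in some CD8+ T cells, was lower. It had a ratio of 0.374 (0.286–0.482), or 0.663 in the stricter set. *Ctla4* was at 0.979 and *Il2ra* at 1.02. The median of the 3 was 0.979, and 1.30 in the stricter set. The part of CD4+ and Treg cells in the ratios was not tested.

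**Figure D2:**
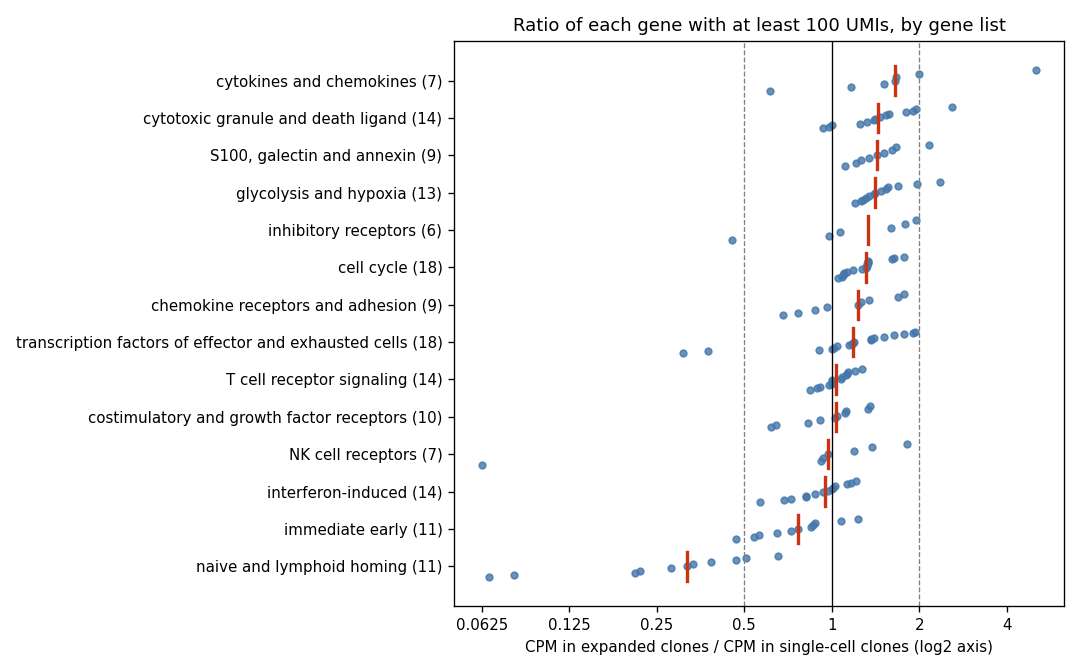
Ratio of CPM in members to CPM in single-cell clones (x axis, log2 scale) for each gene with at least 100 UMIs, in 14 gene lists with their number of ranked genes; red bars are list medians, the solid line is 1 and dashed lines are 0.5 and 2. The naive and lymphoid homing list lies to the left with a median of 0.317, and cytokines (1.65) and cytotoxic genes (1.44) lie to the right.

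Cytotoxic genes were higher, most of them by less than 2-fold. Of 14 ranked genes of granules and death ligands, 11 had intervals above 1 (background, 12.5%) and none below (9.05%), 1 reached 2-fold (0.525%), and the median ratio was 1.44. *Prf1*, the pore-forming perforin, stood at 270.2 CPM (238–305) in members and 104 CPM (93.1–116) in single cells, a ratio of 2.60 (2.20–3.07). It had UMIs in 51 of 73 clones and was above the pooled single-cell level in 43. *Gzmb*, granzyme B, stood at 1769 CPM (1685–1855) and 909 CPM (876–943), a ratio of 1.95 (1.83–2.07). Across the 73 clones its lowest, median and highest levels were 0, 1088 and 5672 CPM, and 42 clones were above the level of the single cells, so that expanded clones lay on both sides of it. *Fasl*, the ligand of the death receptor Fas, had a ratio of 1.90 (1.39–2.57) and *Gzmk*, granzyme K, 1.80 (1.55–2.08). *Nkg7*, a granule membrane protein, stood at 2579 CPM (2479–2683) and 1755 CPM (1709–1802), a ratio of 1.47 (1.40–1.54), and had UMIs in all 73 clones. The ratios of *Gzmc* and *Gzmf* rested on single cells: without the member with most UMIs they moved from 1.41 to 0.941 and from 1.57 to 0.870. *Lamp1* (0.933, 0.697–1.23) and *Ctsw*, cathepsin W (0.981, 0.863–1.11), had intervals that include 1. In the stricter CD8+ set the median was 1.23, with *Prf1* at 1.62 and *Gzmb* at 1.72, and *Gzmc* (0.896) and *Gzmf* (0.723) were below 1.

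*Gzma*, granzyme A, ranged widely among the clones. It stood at 1075 CPM (1010.1–1142) in members and 812 CPM (781–843) in single cells, a ratio of 1.32 (1.23–1.42), with a lowest, median and highest clone of 0, 276 and 14475 CPM. Clonotype1 had 112 UMIs in 13 cells and clonotype24 109 in 4, while clonotype10, clonotype23 and clonotype37, of 4 cells each, had 0. Clonotype10 had 69 UMIs of *Gzmb* and 33 of *Prf1*, of which the cell with most UMIs of each gene held 49 and 31.

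Summed over the members, most secreted mediators were higher than in single cells, and a few cells carried much of the excess. *Ccl5* was above the pooled single-cell level in 44 of the 73 clones, *Ifng* in 32, *Ccl4* in 28, *Ccl3* in 20, *Ccl1* in 12 and *Xcl1* in 11. The median clone stood at 169 CPM of *Ifng* and 706 CPM of *Ccl4*, below the single cells. *Xcl1* moved from a ratio of 1.17 to 0.887 without its top cell. Of 7 ranked cytokine and chemokine genes, 5 had intervals above 1 (background, 12.5%) and 1 below (9.05%), with a median ratio of 1.65. *Ifng* stood at 426 CPM (385–469) in members and 213 CPM (198–230.0) in single cells, a ratio of 1.995 (1.76–2.26), just under the 2-fold threshold and 1.92 in the stricter CD8+ set. *Ccl5*, a chemokine stored in effector and memory CD8+ T cells, was the most abundant of them, at 11847 CPM (11630.2–12067) and 7805 CPM (7709–7903), a ratio of 1.52 (1.48–1.55), or 1.26 in the stricter set, with UMIs in all 73 clones. *Ccl4*, a chemokine that CD8+ T cells release on activation, stood at 1848 CPM (1763–1936) and 1113 CPM (1077–1150.5), a ratio of 1.66 (1.57–1.76). However, 1 cell of clonotype3 held 538 of the 1771 *Ccl4* UMIs and 121 of the 483 of *Ccl3*, and without it the ratios fell to 1.16 (1.09 to 1.24) and 1.25 (1.10 to 1.41). *Ccl1*, a ligand of CCR8, had the highest ratio of all ranked genes, 5.05 (3.61–7.12), from 91 UMIs in 15 cells of 12 clones. One cell of clonotype37 had 28 of these, and the ratio without it was 3.53. Over the other definitions of cells and clones it ranged from 2.28 to 10.2, and it was 3.58 in the stricter set. *Areg*, the epidermal growth factor ligand amphiregulin, was lower, with a ratio of 0.614 (0.448–0.828), but turned to 1.79 (1.11–2.83) in the stricter set, where the median of the list was 1.68 and *Ccl4* was at 1.62.

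Clonotype3 and clonotype7, which share a beta chain, differed in their UMIs of these mediators. Summed over their cells, they had 37187 and 20247 UMIs of all genes. Other clonotypes that share a beta chain were not compared here. Clonotype3 had 571 *Ccl4*, 171 *Ccl3*, 83 *Ifng* and 41 *Xcl1* UMIs in its 8 cells, and clonotype7, with the same beta chain and no assembled alpha chain, 17, 4, 5 and 0 in its 7 cells, which were shallower (medians of 5183.5 and 2807 UMIs). Outside the cell with most *Ccl4*, the rest of clonotype3 had 33 *Ccl4*, 50 *Ccl3*, 57 *Ifng* and 15 *Xcl1* UMIs. That cell held most of the *Ccl4* and 26 of the *Ifng* UMIs. Another cell of clonotype3 held 51 of the other 57 *Ifng* UMIs. Most of the *Ifng* in clonotype3 thus came from these cells, and all its *Xcl1* from 2 cells. The differences in these sums between clonotype3 and clonotype7 were therefore largely those of a few cells. *Ccl5* was abundant in both, with 626 and 544 UMIs.

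Inhibitory receptors were split. *Pdcd1*, which encodes PD-1, stood at 219 CPM (190.5–251) in members and 123 CPM (111–135) in single cells, a ratio of 1.79 (1.51–2.12), *Havcr2* (TIM-3) had a ratio of 1.95 (1.48–2.57) and *Lag3* 1.60 (1.36–1.87). *Pdcd1* was above the pooled level of single cells in 42 of the 73 clones, *Havcr2* in 34 and *Lag3* in 29. *Tigit* (1.07, 0.895–1.28) and *Ctla4* (0.979, 0.835–1.14) had intervals that include 1, and *Cd160* was lower at 0.455 (0.313–0.643). The median over the 6 ranked genes was 1.33, and 1.32 in the stricter CD8+ set, where *Pdcd1* was at 1.34 and *Havcr2* at 1.65.

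Among 18 transcription factors of effector and exhausted cells, 6 had intervals above 1 (background, 12.5%) and 2 below (9.05%), with a median ratio of 1.19, and 1.18 in the stricter CD8+ set. *Prdm1*, which encodes Blimp-1, had a ratio of 1.94 (1.34–2.78), *Bhlhe40*, a regulator of effector and mitochondrial programs, 1.90 (1.67–2.17), and *Irf8* 1.77 (1.39–2.23), and in the stricter set they were at 1.89, 1.57 and 1.87. *Bhlhe40* was above the pooled single-cell level in 50 of the 73 clones. *Id3* was lower, at 0.307 (0.200–0.452) (0.581 in the stricter set), 39.3% of its member UMIs being those of clonotype23. *Tox*, a factor of exhausted cells, was at 1.003 (0.716–1.38) and *Eomes* at 0.907 (0.654–1.24), both within counting error of 1. Outside the lists, *Zbtb32*, a zinc finger repressor, stood at 55.3 CPM (41.4–72.3) and 15.7 CPM (11.6–20.7), a ratio of 3.53 (2.35–5.30) that remained 3.31 in the stricter set, from 26 clones. *Cdkn1a*, which encodes the cell cycle inhibitor p21, had a ratio of 2.37 (1.77–3.15).

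The level of several genes stepped between single cells and clones of 2 and changed little above that. *Gzmb* stood at 909 CPM (876–943) in single cells, 1680.2 CPM (1566–1801) in clones of 2, 1847 CPM (1687–2017) in clones of 3 to 4 and 1868 CPM (1689.6–2061) in clones of at least 5. *Lgals3*, which encodes galectin-3, had the same form, at 343, 683, 820.4 and 780.0 CPM. *Il7r* stood at 154, 27.2, 29.97 and 46.7 CPM, and the 3 expanded classes overlap in their intervals. The pooled level of *Ifng* rose over the classes: it was at 213 CPM (198–230.0), 287 CPM (241–339), 397 CPM (325–480.3) and 771 CPM (658–898). Without the cell with most *Ifng* UMIs in each class, the last 3 values were 260.0, 334 and 547 CPM. In clones of at least 5, however, 2 cells of clonotype3 held 51 and 26 of the 165 *Ifng* UMIs, and only the first was left out. Whether *Ifng* levels off above clones of 2 can therefore not be told. The excess of *Ccl4* in clones of at least 5, 3839 CPM against 1399 in clones of 2, was that of 1 cell, since without the top cell of each class the levels were 1359 and 1268 CPM. The class of at least 5 cells holds 6 clones and 43 cells, so these levels are those of a few clones.

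**Figure D3:**
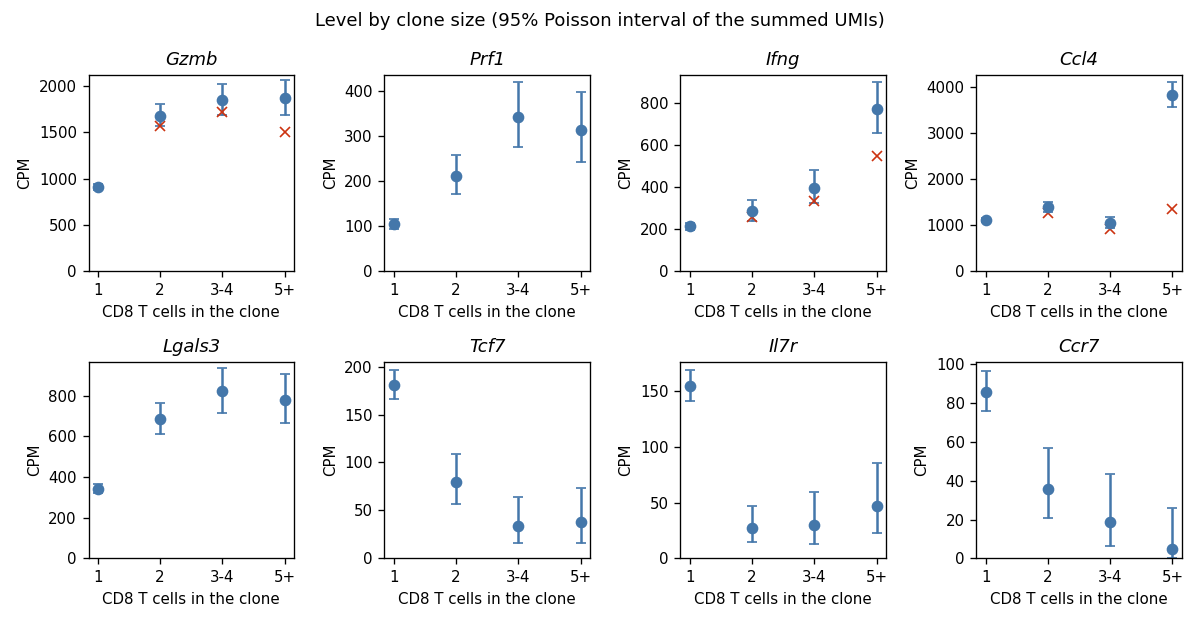
CPM of 8 genes (y axis, from 0) against the number of CD8+ T cells in the clone; points are UMIs summed over 721, 102, 55 and 43 cells, and bars are 95% Poisson intervals. Red crosses, for Gzmb, Ifng and Ccl4, leave out the cell with most UMIs in the class: Ccl4 in clones of at least 5 then falls from 3839 to 1359 CPM.

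Between the large clones the spread was wide. The 28 cell cycle genes summed to 5823 CPM in clonotype2, and to 502 in clonotype8 and 832 in clonotype37. Over all members they summed to 2369 CPM, and in single cells to 1863. None of the 18 ranked cell cycle genes reached 2-fold, 8 had intervals above 1 (background, 12.5%) and the median ratio was 1.31, which fell to 1.05 in the stricter CD8+ set. *Tyms*, for thymidylate synthesis, was highest of them at 1.77 (1.19–2.59), and *Mki67*, a marker of cycling cells, was at 1.10 (0.775–1.54). Clonotype1 held 243 *Gzmb* UMIs in 13 cells, 14.3% of those of all members, but its level, 3071 CPM, was below the 4121 of clonotype24 and the 4615 of clonotype8. Without this clone the ratio of *Gzmb* was 1.82 and that of *Prf1* 2.38.

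**Figure D4:**
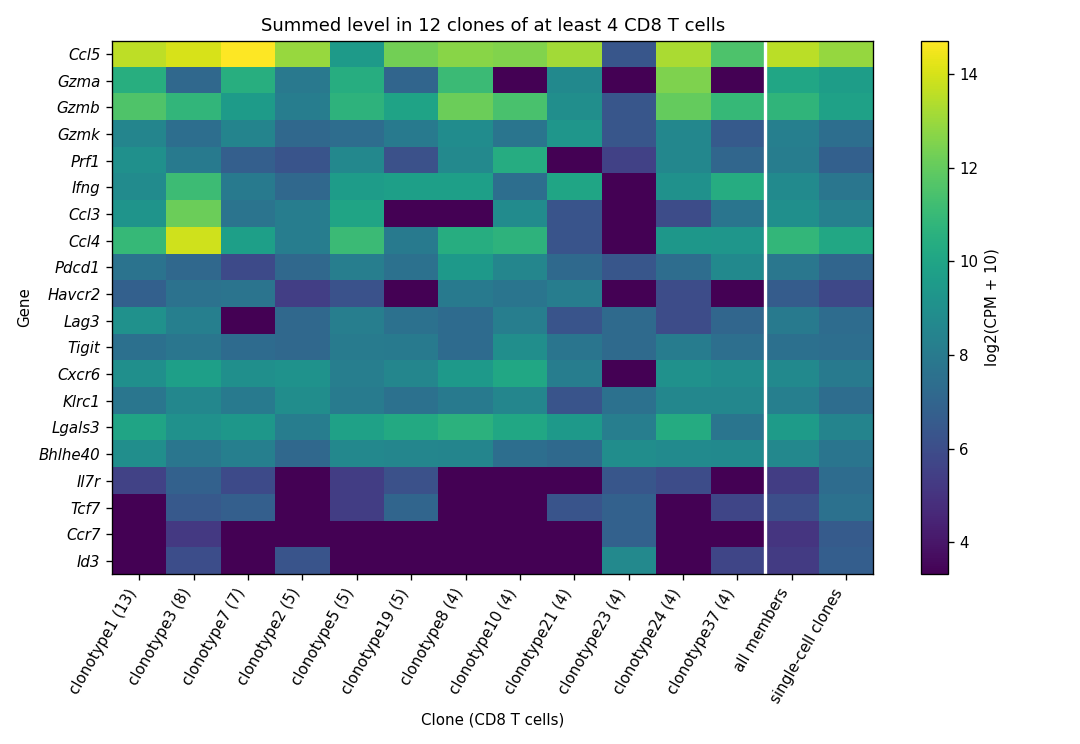
Color gives log2(CPM + 10) of 20 genes (rows) in 12 of the 13 clones of at least 4 CD8+ T cells (columns, with their number of cells), and, right of the white line, in all 200 members and the 721 single cells. Clonotype23 is dark for Gzma, Ifng and Cxcr6 and bright for Id3, and clonotype3 is brightest for Ccl4.

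Receptors for chemokines and adhesion, costimulation and NK ligands showed smaller or mixed differences. *Cxcr6*, which positions T cells in tissue, stood at 413 CPM (374–456) in members and 244 CPM (227–262) in single cells, a ratio of 1.70 (1.498–1.92), and *Cx3cr1*, of effector cells, had a ratio of 1.78 (1.22–2.55), while *Itgb7*, a gut-homing integrin chain, was lower at 0.678 (0.547–0.835). *Itgae*, the CD103 chain of resident cells, had 0 UMIs in members and 41 in single cells, at 12.8 CPM (9.22–17.4). The costimulatory receptor *Tnfrsf9* (4-1BB) was at 1.36 (1.18–1.55), and *Tnfrsf4* (OX40), which Treg cells also express, at 0.617 (0.493–0.766). *Cd69*, an early activation marker that holds cells in tissue, was lower, at 0.644 (0.560–0.738). Over these lists the median ratios were 1.23 for 9 genes and 1.03 for 10, and no gene of either reached 2-fold. In the stricter CD8+ set they were 1.16 and 1.17, with *Cxcr6* at 1.45, *Cx3cr1* at 1.22, *Itgb7* at 0.806, *Tnfrsf9* at 1.57 and *Cd69* at 0.648, and *Tnfrsf4* turned to 1.28. *Klrc1*, which encodes the inhibitory receptor NKG2A, had a ratio of 1.82 (1.56–2.11) and was above the pooled single-cell level in 50 of the 73 clones, whereas its partner *Klrd1* (CD94) was at 0.934 (0.821–1.06). In the stricter set *Klrc1* was at 1.46.

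Most Ly49 receptor genes, which encode lectin-like receptors for MHC class I, had no UMI in expanded clones. *Klra7* had 0 UMIs in the 200 members and 160 in 56 single cells, at 50.1 CPM (42.7–58.5), so that members were at most 0.0624 of that level, taking 3 counts over the group as the limit of a count of 0. *Klra6* (63 UMIs in single cells) and *Klra1* (61) were at 0 as well, as were *Klra3* (19), *Klra5* (2) and *Klra4*, which was also at 0 in single cells, whereas *Klra9*, outside the list, had 2 UMIs against 20. The Ly49 genes are near-identical copies of each other, so the UMIs of each are uncertain. In the stricter CD8+ set the limit for *Klra7* was 0.262.

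Glycolytic genes and the S100 and galectin genes were higher together. All 13 ranked genes of glycolysis and hypoxia had intervals above 1 (background, 12.5%), with a median ratio of 1.41, from *Pgam1* at 1.201 (1.03–1.40) to the lactate transporter *Slc16a3* at 2.36 (1.65–3.34), the only 1 of them past 2-fold. *Gapdh* stood at 1936 CPM (1848–2026) in members and 1381 CPM (1341–1423) in single cells. The glucose transporters *Slc2a3* and *Slc2a1* had ratios of 1.97 (1.49–2.60) and 1.54 (1.09–2.14). All 9 ranked genes of the S100, galectin and annexin list had intervals above 1 too (same background), with a median of 1.43. *Lgals3* stood at 743 CPM (689–799.6) and 343 CPM (323–364), a ratio of 2.17 (1.97–2.38), and *S100a6*, a calcium-binding protein of activated cells, at 2646 CPM (2544–2751) and 1637 CPM (1593–1682), a ratio of 1.62 (1.54–1.70). *Lgals3* had UMIs in 63 clones and was above the pooled single-cell level in 48. Both medians were 1.23 in the stricter CD8+ set.

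Immediate early genes, which are switched on within minutes of a stimulus, were lower. Of 11 ranked genes, 7 had intervals below 1 (background, 9.05%) and 1 above (12.5%), with a median ratio of 0.768. *Fos* stood at 199 CPM (172–229.7) in members and 427 CPM (405–451) in single cells, a ratio of 0.466 (0.399–0.543), *Zfp36*, which destabilizes cytokine mRNA, had a ratio of 0.542 (0.460–0.635) and *Jun* 0.561 (0.483–0.648). *Dusp2*, a phosphatase of activated T cells, went the other way at 1.24 (1.09–1.40), as did the nuclear receptor *Nr4a1* at 1.40 (1.17–1.66). In the stricter CD8+ set the median was 0.967 and *Fos* was at 0.807, nearer to 1 than in the main set.

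Interferon-induced genes and TCR signaling genes had medians close to that of all genes. The 14 ranked interferon genes had a median ratio of 0.951 (0.954 in the stricter set), and no gene was past 2-fold. Of these genes, 2 had intervals above 1 (background, 12.5%) and 5 below (9.05%). *Ifit3* was lowest at 0.565 (0.361–0.854) and *Ly6c2* highest at 1.22 (1.14–1.29). The 14 genes of TCR signaling had a median of 1.04 (1.05 in the stricter set), with 5 intervals above 1 (background, 12.5%) and 1 below (9.05%). They ranged from *Cd2* at 0.842 (0.746–0.948) to *Cd6* at 1.27 (1.03–1.57).

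The remaining genes at the ends of the ranking were of low abundance. *Pf4*, a platelet and macrophage chemokine, had a ratio of 3.95 (2.75–5.68), but 64 of its 70 UMIs were in 1 cell, and without that cell the ratio was 0.341. *Lyz2*, lysozyme of myeloid cells, fell from 3.04 (2.23–4.14) to 1.59 without its top cell. *Tff1*, a trefoil peptide (2.78, 1.90–4.03), *Mt3*, a metallothionein (2.75, 1.83–4.11), and *Il1r2*, the decoy receptor of IL-1 (2.68, 1.77–4.03), had 45 to 55 UMIs in 16 to 18 clones, and clonotype1 held 34.0% of those of *Mt3*. In the stricter set these 3 genes were at 1.41, 1.85 and 1.999. *Stard4*, a cholesterol transporter, was at 2.24 (1.47–3.38) from 32 clones, and the unnamed gene *AC163354.1* at 2.18 (1.55–3.05). On the lower end, *Cxcl2*, a neutrophil chemokine, was at 0.160 (0.0576–0.358), *Nsg2* at 0.186 (0.0735–0.396), *Rflnb* at 0.203 (0.0797–0.431) and *Penk*, which encodes the enkephalin precursor, at 0.204 (0.0730–0.460). *Selenop*, selenoprotein P (0.229, 0.102–0.448), *Ramp1*, a subunit of the receptor for the neuropeptide CGRP (0.238, 0.0932–0.509), and the ubiquitin ligase gene *Znrf1* (0.251, 0.123–0.462) followed.

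**Figure D5:**
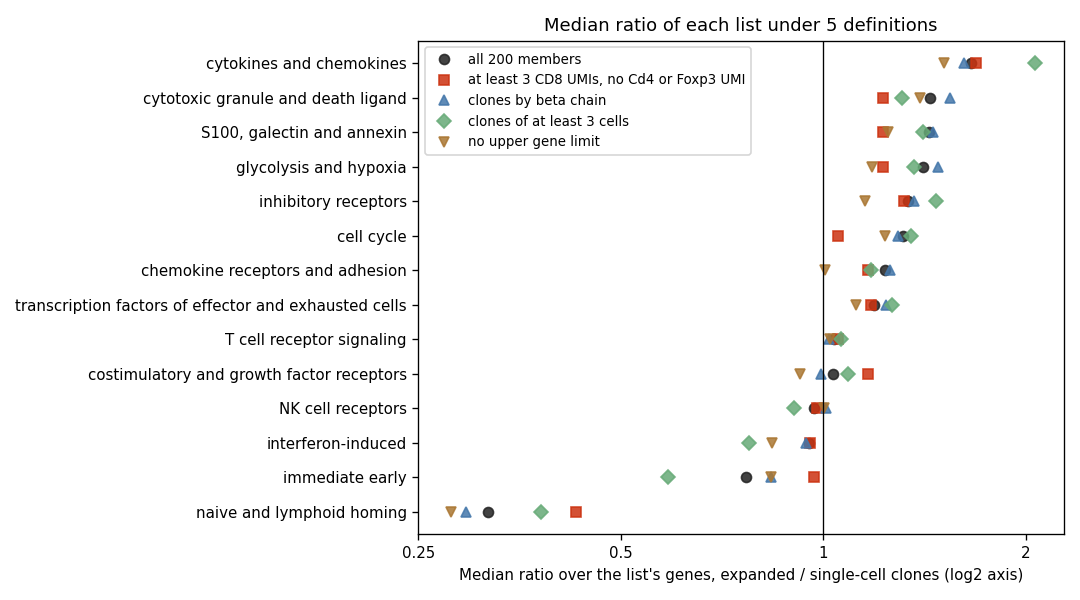
Median ratio over the ranked genes of each list (x axis, log2 scale) under 5 definitions of cells and clones. Circles are the 200 members and red squares the stricter CD8+ set: the naive and lymphoid homing list moves from 0.317 to 0.429, cell cycle from 1.31 to 1.05 and immediate early genes from 0.768 to 0.967.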

How the data were processed

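Expression was deposited by the authors as unnormalized UMI counts, 1 value per gene and barcode, from reads mapped to mouse (mm10) and human genes together and before any filter on cells. The hashtag values are deposited raw counts of UMIs per tag, and the TCR values are deposited counts of UMIs per assembled contig with Cell Ranger's clonotypes. The matrix header names Cell Ranger 3.1.0 and the submitters' processing notes Cell Ranger 6.1.1.

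Of 7857 barcodes with a contig, 6665 were in the expression matrix. The study's limits were applied to mouse genes, and doublets were treated only through barcodes with at least 2 productive beta chains, which an alternative leaves out. The members and gene lists were chosen with earlier results of these data known. UMIs were summed per group (958373 in members and 3191490 in single-cell clones) and scaled to CPM. The genes named were those of the lists (per list, up to 5 in each direction with at least 100 UMIs, and those at 0) and the 12 highest and 12 lowest ratios; a few others were named after their values were seen. A group at 0 was set at 3 counts. PCR duplicates are collapsed by UMI, but UMIs of 1 cell are not independent samples of a condition, so intervals cover counting error only. The script was tested on simulated data of 4211 genes with 200 changed, and all 200 were placed in the right direction (100.0%). Computations used Python 3.11.15, NumPy 2.4.6, pandas 2.3.3 and SciPy 1.17.1, and figures matplotlib 3.10.9. The alternatives changed the definition of clones, the cell limits, the CD8 rule, the summary of each group, the minimum of UMIs and the cells left out. Hashtags entered no comparison. Results for 1 gene and 1 clone are not reported here.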

Additional observations from a re-analysis of the deposited data

How the results depend on the processing

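The pool is 1 sample, so depth sets only the counting error, and the spread between animals is unknown. The share of CD8+ T cells in expanded clones, 21.7%, moved to 30.3% with clones by beta chain, 10.6% with at least 3 cells per clone, 25.8% without the upper limit on genes and 26.5% in the stricter CD8+ set. The numbers of genes at least 2-fold higher and lower, 22 and 54, moved to 4 and 23 with cells thinned to 1500 UMIs (1585 genes ranked, in place of 4189), to 9 and 30 in cells whose cytotoxic UMIs exceed their naive UMIs, and to 6 and 17 in the stricter set. A minimum of 50 UMIs gave 49 and 160, of 200 UMIs 9 and 20, and of 1 UMI 560 and 783; the last ranks 13460 genes. Paired chains only gave 12 higher genes, and clones of at least 3 cells 113 lower ones. The cause of these moves was not tested, beyond the number of genes ranked. Ratios of named genes whose interval excluded 1 crossed to the other side of 1 as follows. In the stricter set they were *Areg* at 1.79, *Tnfrsf4* at 1.28, *Tnfrsf18* at 1.08, *Junb* at 1.09, *Gzmc* at 0.896, *Gzmf* at 0.723, *Stmn1* at 0.943, *Hmgb2* at 0.968 and *Bnip3* at 0.936. With only the *Cd4* and *Foxp3* UMIs excluded they were *Areg* at 1.44 and *Gzmf* at 0.780. In clones of at least 3 cells *Pf4* was at 0.450, *Lyz2* at 0.729, *Gzmc* at 0.592, *Gzmf* at 0.492 and *Klrg1* at 0.903. With paired chains *Gzmc* was at 0.972 and *Gzmf* at 0.452, and with clones by beta chain *Areg* was at 1.004. Without the upper gene limit *Lyz2* was at 0.944, *Cd6* at 0.948 and *Crip1* at 0.965. Without the top cell of each gene *Pf4* was at 0.341, *Gzmc* at 0.941 and *Gzmf* at 0.870, and as a mean over cells *Ifi27l2a* was at 1.01. Of the 22 higher genes, *Hspb1* (2.06) also crossed, to 0.276 with paired chains, 0.304 in clones of at least 3 cells and 0.353 without cells with a macrophage marker UMI, which leaves no *Lyz2* by construction. Without the upper gene limit, 2 of the 22 higher genes were still at least 2-fold higher and 21 were above 1, and 28 of the 54 lower genes were still at least 2-fold lower. The stricter set, the sets without shared beta chains, without macrophage marker UMIs and without the top cell of each gene were chosen after the data were seen. No paired analysis was made. The series has 1 pool, and although the hashtags hold 2 tags per tumor, few cells carry a tag.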

Other observations

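The upper limit of 2500 genes removed some barcodes of the expanded clones. The 73 clonotypes had 253 barcodes in the library, of which 29 were above the limit and 20 at or over the limit on mitochondrial UMIs. Of the 250 CD8+ barcodes above the gene limit with a clonotype, 29 (11.6%, 7.91 to 16.2) belonged to a clonotype that is expanded below it. Of the 921 CD8+ cells within the limits that had a clonotype, 200 (21.7%) were members. These shares are not comparable, because the first leaves out clones that are expanded only when barcodes above the limit are counted. Without the limit, 302 cells were in expanded clones and 869 in single-cell clones. Clonotype2, with 5 members, had 5 more barcodes above the limit, and clonotype5, clonotype8 and clonotype10 had 3 each.

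Hashtag UMIs placed few cells, and the 2 tags of each tumor were summed. A tag of B16 alone was found on 13 members and of B16–IL-33 alone on 6, against 67 and 10 of the single cells, and no cell of either group had tags of both tumors. Of the 73 expanded clones, 16 had a tagged cell, 2 had at least 2, and none had tagged cells of both tumors. Clonotype1 had 2 cells with a B16–IL-33 tag, clonotype3 had 1, and clonotype10 had 1 with a B16 tag. With so few tags, sharing of clones between the tumors was not detectable. The part of tumor of origin in the ratios was not tested.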
